A study of Mus musculus with 4 samples.

Results

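Replication-dependent histone genes encode the proteins that package newly copied DNA: the core histones H2A, H2B, H3 and H4 and the linker histone H1. They were taken here as the rows of the raw count table whose symbol begins with Hist1h, Hist2h, Hist3h or Hist4h, which gave 69 of 27179 genes, grouped by the class in their symbol into 6 H1, 19 H2a, 19 H2b, 12 H3 and 13 H4 genes. RefSeq lists 2 of them, Hist1h2al and Hist3h2bb-ps, as transcribed pseudogenes. The cells were pDCs (plasmacytoid dendritic cells, which sense viral nucleic acids and secrete type I interferon) derived from C57BL/6 mouse bone marrow with Flt3-ligand over 8 days. All were exposed for 24 h to imiquimod, a TLR7 ligand, at 1 µg/ml, and all were separated by SiglecH and CD11b, with the direction of the CD11b gate unclear in the sources used here. The comparison was between 2 libraries of BFP-positive cells, in which the blue fluorescent reporter of the chemokine gene Cxcl10 was on, and 2 libraries of stimulated BFP-negative cells. The labels call the BFP-negative population CXCL10+BFP- in one place and CXCL10-BFP- in another, so that only the BFP part was used, and they do not say what the code shared by both libraries of a replicate number means or whether the libraries came from separate mice or cultures, so that p-values measure the spread between these libraries, which may be technical.

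Most messenger RNAs end in a poly(A) tail, whereas replication-dependent histone messages end in a conserved stem-loop bound by SLBP and are made mainly while DNA is copied in S phase. Many of these genes can also yield polyadenylated messages, which are known from differentiated and non-dividing cells. The SMART-Seq kit used here starts cDNA synthesis at poly(A) tails with an oligo-dT primer, so the levels below are those of messages this priming can capture and not of all histone messages. How much of each gene's message carried a tail was not tested.

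Library totals ran from 11868254 to 12570117 counts, and 1 count was worth 0.0796 to 0.0843 CPM (CPM are counts scaled to a common library total, here with TMM factors, and are the level used unless RPKM is named). The reporter gene Cxcl10 had 3 and 19 counts in the BFP-negative and 149 and 154 counts in the BFP-positive libraries, in the direction of the labels. The pDC marker Siglech stood at 610 and 614 CPM in BFP-negative and at 784 and 820 CPM in BFP-positive libraries. The cells were separated by SiglecH, so its presence in every library is no separate check of cell type. Of 14 pDC markers, given further below, 3 rose, Siglech among them, and 4 fell. Across all 11706 genes with enough counts to test, 7.6% were higher and 3.51% were lower in BFP-positive cells in edgeR's quasi-likelihood test at an adjusted p threshold of 0.05. That is 890 genes higher and 411 lower. Without the second BFP-positive library 559 were higher, and without the first 245 were lower. In 27.1% of all tested genes both BFP-positive libraries lay above both BFP-negative ones, and in 27.1% both lay below.

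Of the 69 genes, 67 could be matched to a GENCODE M21 transcript (GRCm38), and 45 of those transcripts held a sequence of the histone stem-loop type, which pairs with itself around a T-rich loop and was searched on the transcript strand. Of the 22 without a match, 11 are annotated as the coding sequence alone, so nothing after the stop codon could be searched. A match was found anywhere in a transcript for 2.74% of 21901 protein-coding genes. The stem-loop is shown for 4 genes that rose and for 3 that did not pass the test, the member with the largest fold change and the 2 for which both BFP-positive libraries lay below both BFP-negative ones, in DNA letters of the transcript strand with the 16 bases of stem and loop in capitals.
Hist1h2ao: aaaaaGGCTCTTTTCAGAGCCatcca
Hist1h4d: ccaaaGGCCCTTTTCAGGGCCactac
Hist1h1e: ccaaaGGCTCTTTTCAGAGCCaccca
Hist2h2ac: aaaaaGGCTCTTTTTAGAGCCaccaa
Hist1h3g: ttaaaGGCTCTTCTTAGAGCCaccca
Hist1h3e: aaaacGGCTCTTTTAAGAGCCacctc
Hist4h4: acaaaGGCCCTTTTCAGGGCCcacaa
Hist1h2ao and Hist1h1e, which rose, hold the commonest 16 bases, found in 25 members of the H1, H2a, H2b and H3 classes. Hist1h4d, which rose, and Hist4h4, which did not pass the test, have the same 16 bases, found in 7 H4 genes. Hist2h2ac and Hist1h3g have versions found in no other member. Of the 37 tested genes with a stem-loop in the transcript 10 rose, and of the 14 without one 5 rose, so the called genes were found on both sides of this split.

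The histone genes as a group were higher in BFP-positive cells. Their summed level was 430 and 388 CPM in the BFP-negative libraries and 1012 and 1042 CPM in the BFP-positive libraries, a ratio of 2.51. The groups did not overlap, and both replicates of a group lay close together. As a share of the library, histone counts made up 0.0446% and 0.0392% in BFP-negative and 0.0994% and 0.101% in BFP-positive cells. In bulk libraries, a larger share of cells with histone messages and more message per cell cannot be told apart. With 2 libraries against 2, an exact permutation test of a summed level cannot go below a two-sided p of 0.333, so no test of the sums is given.

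Gene by gene, 52 of the 69 members had enough counts to test, 15 of them rose (28.8%, against 7.6% of all tested genes) and 0 fell. No member was lower at an unadjusted p under 0.05 either, while 19 were higher, and DESeq2, limma-voom and every other alternative also called 0 lower. Both BFP-positive libraries were above both BFP-negative ones in 38 tested members and below in 2, with overlap in 12. The median log2 fold change of the tested members was 1.20, against -0.02 over all tested genes. Of the tested members, 9 reached the filter on low counts only through the BFP-positive libraries. Among the 42 members that reached it in both BFP-negative libraries as well, 15 rose and the median was 1.04. Of the 17 members with too few counts, 3 had no count in any library, namely Hist1h2af and the testis genes Hist1h1t and Hist1h2ba. The untested members with the most counts were Hist2h2ab at 0.482 and 0.552 CPM against 0.772 and 0.822 CPM, Hist1h2bf at 0.321 and 0.0788 CPM against 0.429 and 1.23 CPM and, with 24 counts each, Hist2h4 at 0.401 and 0.0788 CPM against 0.858 and 0.658 CPM, Hist1h4j at 0.321 and 0.236 CPM against 0.772 and 0.658 CPM and Hist1h4k at 0.321 and 0.315 CPM against 1.11 and 0.247 CPM. The groups overlapped for Hist1h4k only among these 5. Leaving out a library gave 10 to 15 calls.

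**Figure D1:**
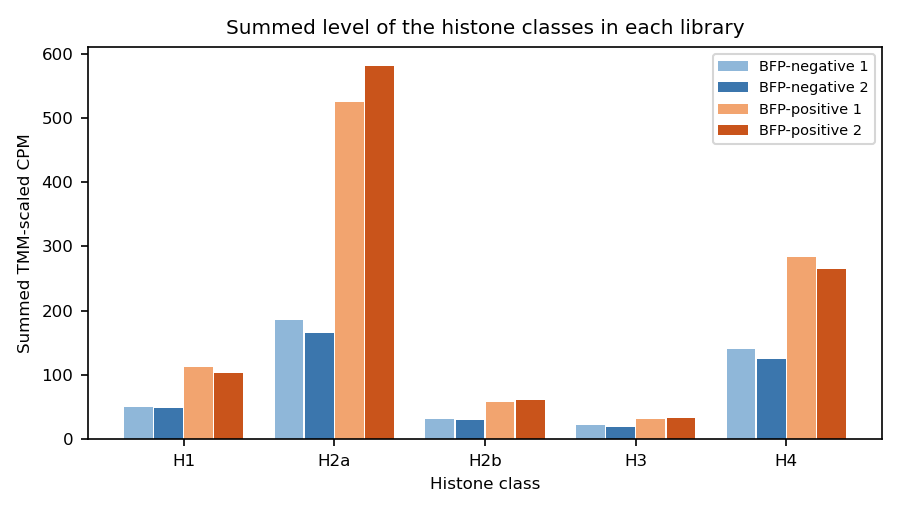
Summed TMM-scaled CPM of each histone class (bars from 0, y axis) in the 4 libraries. H2a bars differ most, with 186 and 165 CPM in the BFP-negative and 525 and 581 CPM in the BFP-positive libraries, and H3 bars have the smallest ratio, with 22.6 and 19.5 against 31.6 and 32.7 CPM.

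Most of the calls were H2a genes. H2A, which pairs with H2B on the outside of the nucleosome, had 11 of 17 tested genes higher, whereas H2b had 1 of 12, H3 0 of 10, H4 1 of 8 and H1 2 of 5. Many H2a transcripts share 50-base words, that is, runs of 50 bases, with other transcripts. The 9 called members with under 50% of these words unique were all H2a genes. How reads were split among such genes is uncertain, so their calls may not be separate rises. Among members that reached the filter in both BFP-negative libraries, the median log2 fold change was 1.57 over 16 H2a genes, 0.92 over 9 H2b genes, 0.07 over 5 H3 genes, 0.91 over 5 H1 genes and 0.25 over 7 H4 genes. Over all tested members the medians were 1.59 for H2a, 1.12 for H2b, 1.01 for H3, 0.91 for H1 and 0.17 for H4, and these include 4 H3, 3 H2b, 1 H2a and 1 H4 genes that reached the filter only through the BFP-positive libraries. A gene that did not pass the test is not shown to be the same in both groups. The H4 median over all tested members was 0.93 without the first BFP-negative, 0.53 without the second BFP-negative, 0.05 without the first BFP-positive and 0.72 without the second BFP-positive library, and the H1 median was 0.43 without the first BFP-negative library. The classes also differed in depth, since the members summed to 165 to 581 CPM for H2a but to 30.3 to 61.6 CPM for H2b and 19.5 to 32.7 CPM for H3, and how far this set the number of calls was not tested. Summed levels had a ratio of 3.15 for H2a, 2.17 for H1, 2.06 for H4, 1.96 for H2b and 1.53 for H3, with no test of the difference between classes. Per length, summed RPKM (deposited values corrected for the length of each gene) of H2a was 6.16 and 6.30 times that of H2b in the BFP-negative libraries and 10.5 and 10.9 times in the BFP-positive ones. Without the first or the second BFP-positive library, 7 H2a genes were called.

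**Figure D2:**
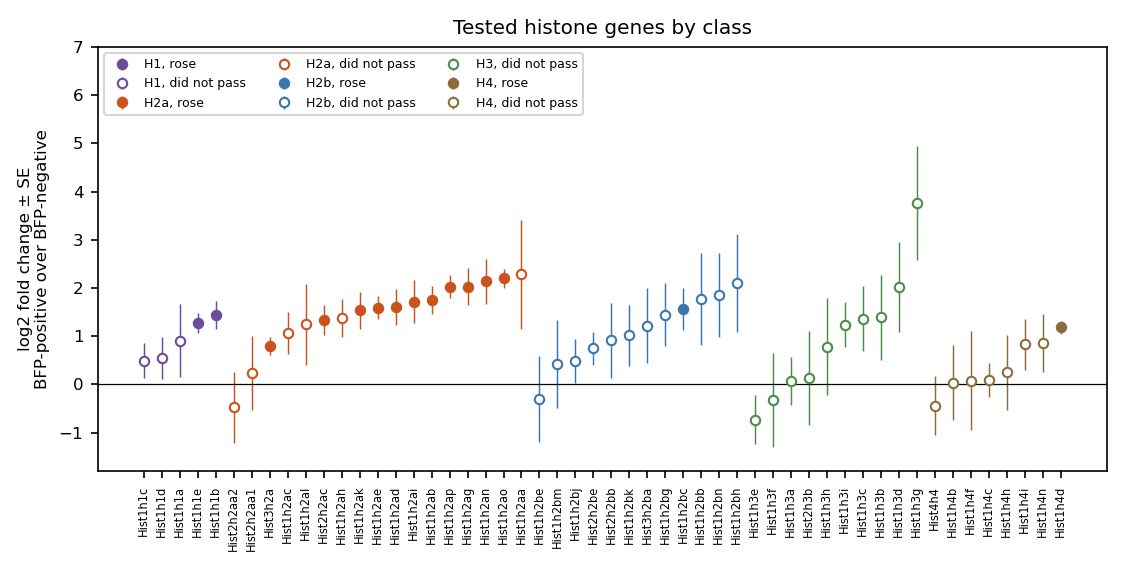
Fitted log2 fold change of BFP-positive over BFP-negative cells (y axis, bars show the standard error) for the 52 tested histone genes, ordered within each class. Filled points passed the test. All 15 filled points lie above 0 and 11 of them are H2a genes, while open points of H3 and H4 lie on both sides of 0.

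Among the H2a genes, Hist1h2ao (chromosome 13, 21810367 to 21810918, plus strand, RefSeq GRCm38.p6) had the smallest p. Its level was 48.3 and 34.8 CPM in BFP-negative and 173 and 209 CPM in BFP-positive libraries. The BFP-positive libraries were several times higher, with a log2 fold change of 2.21 ± 0.20 (SE, n = 2 per group, edgeR adjusted p = 9.54e-05). Hist1h2ap (chromosome 13, 21833024 to 21833475, minus strand) was at 21.2 and 23.2 CPM against 71.7 and 109 CPM, also without overlap, with a log2 fold change of 2.03 ± 0.23 (edgeR adjusted p = 0.000462). These genes encode H2A and are near-identical copies: 93.5% of the 50-base words in the Hist1h2ao transcript also occur in Hist1h2ap, so how reads were split between them is uncertain. Together they were the main source of H2a counts in BFP-positive cells, where Hist1h2ao alone held 33.0% and 36.0% of them, against 26% and 21% in BFP-negative cells.

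Other H2a genes of the same cluster rose as well, at lower levels. Hist1h2ae was at 18 and 13.7 CPM in BFP-negative and 51.8 and 43.9 CPM in BFP-positive libraries. Hist1h2ab was at 8.11 and 7.25 CPM against 25.2 and 26.6 CPM. Both groups were apart for each gene, with log2 fold changes of 1.59 ± 0.24 and 1.75 ± 0.29 (edgeR adjusted p = 0.00234 and 0.00408). The other 5 genes of the Hist1 cluster that rose, Hist1h2ag, Hist1h2an, Hist1h2ad, Hist1h2ak and Hist1h2ai, ran from 2.33 to 5.44 CPM in BFP-negative and from 9.09 to 18.9 CPM in BFP-positive libraries, with log2 fold changes of 1.54 to 2.14 (edgeR adjusted p = 0.00722 to 0.0340). Hist1h2ah was just outside the threshold, at 4.58 and 4.57 CPM against 12.3 and 11.5 CPM (log2 fold change 1.38, edgeR adjusted p = 0.0503). Its transcript shares 87.4% of its 50-base words with Hist1h2ad. Without the first BFP-positive library the calls of Hist1h2ad, Hist1h2ai and Hist1h2ak were lost, without the second those of Hist1h2ai, Hist1h2ak and Hist1h2an, and without the second BFP-negative library that of Hist1h2ai.

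H2a genes outside chromosome 13 also rose. Hist2h2ac (chromosome 3, 96220413 to 96220880, minus strand) was at 9.72 and 7.96 CPM in BFP-negative and at 21.8 and 22.9 CPM in BFP-positive libraries, a log2 fold change of 1.34 ± 0.30 (edgeR adjusted p = 0.0191). Hist3h2a (chromosome 11, 58954685 to 58955192, plus strand) was at 46.8 and 40.7 CPM against 82.8 and 70.2 CPM. That was the smallest log2 change among the called members, 0.81 ± 0.19 (edgeR adjusted p = 0.0207). It overlaps Trim17, which had 0 counts in every library. Both calls depended on a library, as Hist2h2ac lost its call without the second BFP-positive library and Hist3h2a without the first BFP-positive or the second BFP-negative library. Hist2h2aa1 and Hist2h2aa2, which share all of their 50-base words with another transcript, stood between 1.45 and 3.86 CPM with overlapping groups and did not pass.

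**Figure D3:**
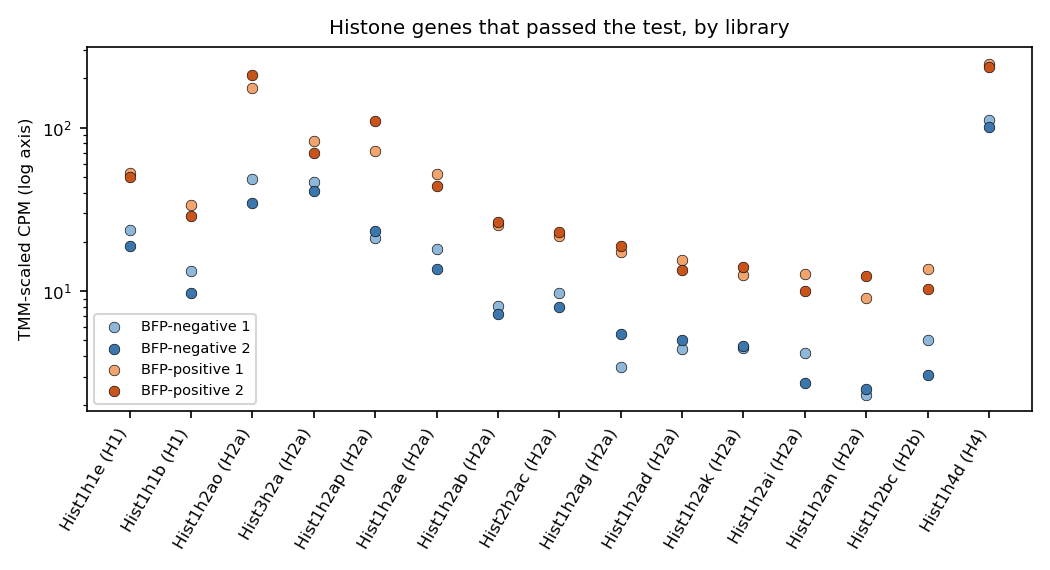
TMM-scaled CPM (log axis) of the 15 histone genes that passed the test, with 1 point for each of the 4 libraries. The BFP-positive points lie above the BFP-negative points for every gene, from Hist1h4d at 101 to 246 CPM down to Hist1h2an at 2.33 to 12.4 CPM.

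Among the linker histones, which bind the DNA between nucleosomes, Hist1h1e and Hist1h1b rose. Hist1h1e (chromosome 13, 23621777 to 23622558, minus strand) was at 23.6 and 19 CPM in BFP-negative and 52.9 and 50.2 CPM in BFP-positive libraries, a log2 fold change of 1.27 ± 0.22 (edgeR adjusted p = 0.0045). Hist1h1b (chromosome 13, 21779832 to 21780625, minus strand), all of whose 50-base words are unique, was at 13.3 and 9.77 CPM against 33.9 and 28.9 CPM, a log2 fold change of 1.44 ± 0.28 (edgeR adjusted p = 0.00895). In both, the groups were apart and the call stayed without any 1 library. Part of the Hist1h1e transcript, 23.8% of its 50-base words, also lies in that of Hist1h2be, which did not pass. Hist1h1c was at 7.23 and 9.14 CPM against 10.6 and 12.4 CPM, apart but without passing (log2 fold change 0.49 ± 0.36, edgeR adjusted p = 0.464). Hist1h1d overlapped between groups.

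H4, which forms the core tetramer with H3, was carried by a single gene. Hist1h4d (chromosome 13, 23581568 to 23581969, plus strand) held 78.9% to 89.0% of all H4 counts in each library. It was at 111 and 101 CPM in BFP-negative and at 246 and 235 CPM in BFP-positive libraries, with a log2 fold change of 1.18 ± 0.14 (edgeR adjusted p = 0.000469). Per length it was also the highest member described here, at 369 and 327 RPKM in BFP-negative and 776 and 733 RPKM in BFP-positive libraries, against 97.3 and 68.3 RPKM and 332 and 396 RPKM for Hist1h2ao. The counted gene length was 312 bases while the GENCODE transcript has 1138, so its RPKM depends on the gene model. The next H4 gene, Hist1h4c, was at 11.9 and 8.59 CPM against 11.7 and 10.1 CPM with overlap (log2 fold change 0.09 ± 0.36, edgeR adjusted p = 0.915), and the fitted direction turned when the second BFP-negative or the first BFP-positive library was left out. Hist1h4i was at 3.13 and 3.47 CPM against 6.35 and 5.43 CPM without passing (0.83 ± 0.53, edgeR adjusted p = 0.383). Hist4h4 was lower in both BFP-positive libraries, at 4.42 and 3.47 CPM against 2.92 and 2.88 CPM, without passing (log2 fold change -0.44 ± 0.61, edgeR adjusted p = 0.723).

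No H3 gene passed edgeR's test, and 2 of 10 had an unadjusted p under 0.05. DESeq2 and limma-voom also called 0, while limma on the deposited log2 RPKM values called 4, namely Hist1h3c, Hist1h3d, Hist1h3g and Hist1h3i. Hist1h3g (chromosome 13, 23535418 to 23535909, plus strand) had the largest fitted change of all members, from 0.161 and 0.0788 CPM to 1.11 and 2.39 CPM, but this rests on few counts (log2 fold change 3.76 ± 1.19, edgeR adjusted p = 0.0718). Hist1h3i was at 4.34 and 3.15 CPM against 8.32 and 9.38 CPM, and Hist1h3a overlapped at 6.42 and 4.26 CPM against 4.97 and 6.25 CPM. In contrast to most members, Hist1h3e was lower in both BFP-positive libraries, at 6.18 and 6.30 CPM against 3.09 and 4.44 CPM, though the difference did not pass (log2 fold change -0.73 ± 0.51, edgeR adjusted p = 0.441). The most abundant H3 gene thus differed between groups, with Hist1h3a or Hist1h3e first in BFP-negative libraries and Hist1h3i first in both BFP-positive ones.

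H2A and H2B genes often lie head to head with a shared promoter region, and 12 such pairs were found here, with starts 164 to 281 bases apart. The H2a gene rose in 9 pairs and the H2b gene in 1. In 6 pairs the H2b partner had too few counts to test, so the pairs do not show that the H2b partners behaved differently, and where both were tested the H2a log2 fold change was larger in 4 of 6. Hist1h2ao had 601, 441, 2023 and 2545 counts in BFP-negative 1 and 2 and BFP-positive 1 and 2, and its partner Hist1h2bq had 1, 1, 2 and 0. Hist1h2bq and its copy Hist1h2br share all or nearly all of their 50-base words, so reads from either may have been lost in counting. For a pair with more even coverage, Hist1h2ag was at 3.45 and 5.44 CPM against 17.4 and 18.9 CPM (log2 fold change 2.03 ± 0.38, edgeR adjusted p = 0.00722), and Hist1h2bj was at 5.78 and 4.41 CPM against 6.60 and 7.65 CPM (0.48 ± 0.46, edgeR adjusted p = 0.587).

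The exception was Hist1h2bc (chromosome 13, 23684199 to 23692480, plus strand), the H2b gene that rose. It was at 5.06 and 3.07 CPM in BFP-negative and 13.7 and 10.4 CPM in BFP-positive libraries, with a log2 fold change of 1.56 ± 0.44 (edgeR adjusted p = 0.0469). Its H2a partner Hist1h2ac, at 5.30 and 3.86 CPM against 9.35 and 9.87 CPM, did not pass (1.07 ± 0.43, edgeR adjusted p = 0.155). The call of Hist1h2bc was lost without the second BFP-negative library, without either BFP-positive library and with library totals in place of TMM scaling. Hist2h2be, the H2b gene with the most counts and the partner of Hist2h2ac, was at 7.55 and 8.51 CPM against 13.4 and 13.7 CPM (0.75 ± 0.34, edgeR adjusted p = 0.212). Most other H2b genes were below 3 CPM in BFP-negative cells.

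**Figure D4:**
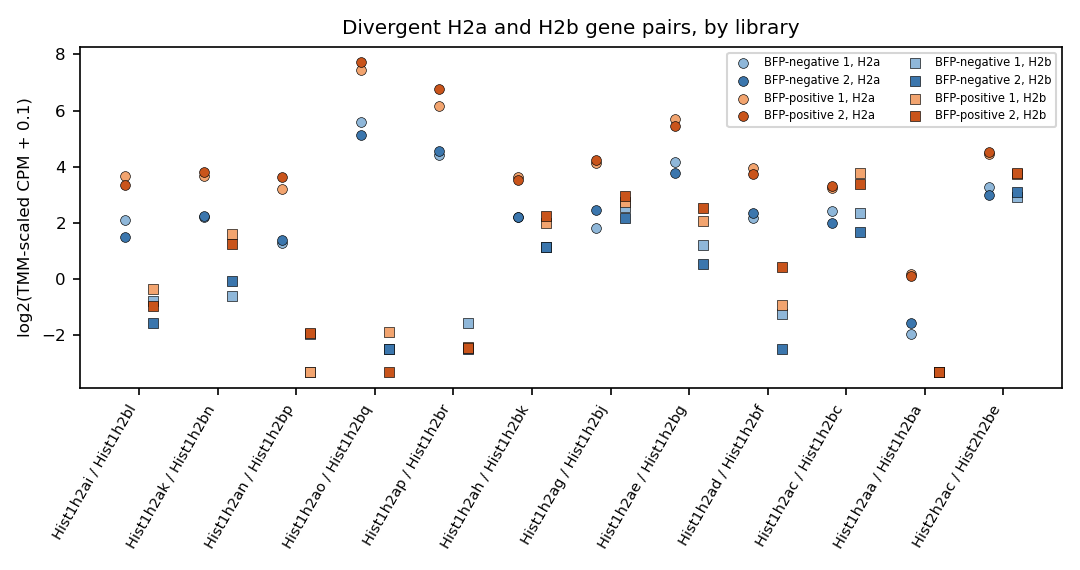
log2(TMM-scaled CPM + 0.1) in each of the 4 libraries for the 12 head-to-head gene pairs, with circles for the H2a gene and squares for the H2b gene. H2a circles lie above H2b squares in most pairs, and the H2a gene had more counts than its partner in 11 of 12.

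The promoters of the histone genes were searched for 3 motifs known from histone promoters. RefSeq (GRCm38.p6) promoters, 250 bases before to 50 after the gene start, were at hand for 62 members and for 27025 genes. Each motif was searched on both strands, and none of the 3 contains another. CCAAT was found in 53 members, against 37.9% of all promoters, and TATAAA in 35, against 14.2%. The octamer ATTTGCAT, bound by OCT1, was found in 13 members, against 1.75% of all promoters. All 13 were H2a (7) or H2b (6) genes. The windows of head-to-head H2a and H2b genes overlap, so the same site can be counted for both genes. A match is a description of the letters and not of a bound site. Examples follow for the H4 gene, the H2a gene with the smallest p and an H2a gene with all 3 motifs, with motifs in capitals on whichever strand they lay.
Hist1h4d, chr13:23581318.0-23581617.0, plus strand: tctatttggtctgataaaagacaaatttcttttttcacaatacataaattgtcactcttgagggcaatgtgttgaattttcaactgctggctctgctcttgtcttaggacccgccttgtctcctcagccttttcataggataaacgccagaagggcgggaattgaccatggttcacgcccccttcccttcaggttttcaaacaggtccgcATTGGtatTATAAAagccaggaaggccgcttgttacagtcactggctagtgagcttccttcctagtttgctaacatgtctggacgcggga
Hist1h2ao, chr13:21810117.0-21810416.0, plus strand: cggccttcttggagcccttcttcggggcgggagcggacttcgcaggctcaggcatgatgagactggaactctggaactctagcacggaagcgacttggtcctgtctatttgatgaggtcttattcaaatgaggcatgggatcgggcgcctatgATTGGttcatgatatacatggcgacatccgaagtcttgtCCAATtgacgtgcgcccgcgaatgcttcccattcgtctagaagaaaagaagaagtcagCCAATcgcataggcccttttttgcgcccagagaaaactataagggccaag
Hist1h2ab, chr13:23750838.0-23751137.0, plus strand: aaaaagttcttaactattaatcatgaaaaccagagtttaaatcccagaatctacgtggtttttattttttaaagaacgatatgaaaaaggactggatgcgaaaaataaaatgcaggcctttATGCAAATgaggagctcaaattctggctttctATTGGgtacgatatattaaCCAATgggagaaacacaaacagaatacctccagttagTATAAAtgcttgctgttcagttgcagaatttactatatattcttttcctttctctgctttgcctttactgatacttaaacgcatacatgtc
The promoter of Hist1h2ap shares an unbroken run of 200 bases with that of Hist1h2ao, which extends the likeness of their transcripts. CCAAT was in all 18 H2a and all 16 H2b promoters at hand, so within these classes it cannot set called genes apart. Among tested H2a genes, 11 of 16 with CCAAT rose, 6 of 10 with TATAAA and 4 of 7 with the octamer. Among tested H2b genes 0 of 10 with CCAAT, 0 of 5 with TATAAA and 0 of 5 with the octamer passed edgeR's test, with 0 at an unadjusted p under 0.05 as well, and Hist1h2bc was not in the table, so the motifs were found in classes with many and with few calls.

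Genes with mostly unique sequence and genes with mostly shared sequence both rose. Of the 27 tested members with at least 50% of 50-base words found nowhere else among the transcripts, 6 rose, with a median log2 fold change of 0.91, and of the 24 below that 9 rose, with a median of 1.36. These 9 were all H2a genes. By cluster, 13 of 43 tested genes rose in Hist1 on chromosome 13, 1 of 6 in Hist2 on chromosome 3, 1 of 2 in Hist3 on chromosome 11, and the single Hist4 gene on chromosome 6 did not pass. An AATAAA poly(A) signal lay after the stem-loop in 14 members, and 2 of the 9 that were tested rose. Of the members whose transcript runs 100 or more bases past the stem-loop 4 of 17 rose, and of those that end sooner 6 of 20.

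Genes that serve histone messages were called at shares near those of all tested genes, of which 7.6% were higher and 3.51% lower. Of 34 tested genes for transcribing and processing histone messages, 1 rose, and the median log2 fold change was 0.01. That gene was Ccnf, a cyclin of the ubiquitin ligase that is known in human cells to degrade SLBP, at 26.7 and 19.6 CPM against 45.3 and 46.5 CPM (0.99 ± 0.23, edgeR adjusted p = 0.0214). Its call was lost without the second BFP-negative or the second BFP-positive library. Slbp, the stem-loop binding protein, was at 111 and 87.0 CPM in BFP-negative and 144 and 118 CPM in BFP-positive libraries, and did not pass (0.40 ± 0.18, edgeR adjusted p = 0.191). Npat, which activates histone transcription at the start of S phase, overlapped at 13.4 and 5.91 CPM against 11 and 6.83 CPM. Cstf2t, a cleavage factor, had the next smallest p and did not pass (0.49 ± 0.18, edgeR adjusted p = 0.127). Of 28 tested histone chaperone and import genes, 1 rose, the S-phase H3-H4 chaperone Asf1b, and 2 fell, the importin Ipo4 and Ubn1. Asf1b was at 41.1 and 37.1 CPM against 69.6 and 76 CPM (0.90 ± 0.18, edgeR adjusted p = 0.0109), a call lost without the second BFP-positive library. Ipo4 was at 96.4 and 104 CPM against 51.6 and 67.4 CPM (-0.75 ± 0.18, edgeR adjusted p = 0.0256), a call lost without the second BFP-negative or the first BFP-positive library. Without the first BFP-positive library no chaperone or import gene was called lower, with an unadjusted p under 0.05 for 5 of them.

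Histone variants, which can replace the replication-dependent forms and most of which have polyadenylated messages, rose in 6 of 10 tested genes and fell in 1, with a median log2 fold change of 0.64. Cenpa, the centromeric H3 variant, was at 30.5 and 20.3 CPM in BFP-negative and 71.8 and 81.8 CPM in BFP-positive libraries (1.6 ± 0.23, edgeR adjusted p = 0.00173). H2afx, the variant phosphorylated at DNA breaks, which is known to yield both a stem-loop and a polyadenylated message, was at 102 and 111 CPM against 192 and 173 CPM, with an edgeR adjusted p of 0.00744. H2afj went the other way, from 558 and 576 CPM to 341 and 308 CPM (log2 fold change -0.80 ± 0.12, edgeR adjusted p = 0.00214). H2afz was near the threshold (0.69 ± 0.20, edgeR adjusted p = 0.0490) and lost its call when any 1 library was left out. H3f3b, which encodes the H3.3 variant, overlapped at 7.39 and 4.26 CPM against 5.06 and 4.85 CPM. H3f3a, which also encodes H3.3, had far more counts, at 150 and 170 CPM against 206 and 246 CPM. Its groups were apart, and it was just outside the threshold (0.50 ± 0.15, edgeR adjusted p = 0.0539).

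Genes of the cell cycle were set beside the histone genes. Of 36 tested genes of DNA replication and S phase, 2 rose and 1 fell, and the median log2 fold change was -0.02, the same to 2 decimals as over all tested genes. The fall, of the polymerase subunit Pola2, was called in no fit that left out a library. The genes that rose were Tk1 and Rrm2, which supply nucleotides. Tk1 was at 20.4 and 29.9 CPM against 65.1 and 73.5 CPM (1.46 ± 0.23, edgeR adjusted p = 0.0029). Rrm2 was at 28.7 and 27.7 CPM against 76.4 and 53 CPM (1.20 ± 0.22, edgeR adjusted p = 0.0074). Pcna, the sliding clamp of the replication fork, was at 70.5 and 76.9 CPM against 80.7 and 78.0 CPM and did not pass (0.11 ± 0.16, edgeR adjusted p = 0.753). Of 30 genes of G2 and mitosis 18 rose, with a median of 1.34. Their summed level was 421 and 404 CPM in BFP-negative and 933 and 923 CPM in BFP-positive libraries, without overlap. Ube2c, a mitotic ubiquitin-conjugating enzyme, was at 16 and 20.7 CPM against 71.9 and 75.5 CPM (2.0 ± 0.21, edgeR adjusted p = 0.000291), and Ccna2, the S and G2 phase cyclin, was at 23.0 and 22.2 CPM against 69.2 and 74.7 CPM (1.67 ± 0.19, edgeR adjusted p = 0.000462). Mki67, a marker of cycling cells, overlapped at 0.161 and 2.76 CPM against 4.46 and 2.39 CPM. Of 14 tested cell cycle brakes 4 rose, among them Cdkn2d, an inhibitor of CDK4 and CDK6, at 79.5 and 85.2 CPM against 194 and 189 CPM (1.22 ± 0.14, edgeR adjusted p = 0.000495). Ccng2, a cyclin that holds the cycle back, was at 15 and 19.9 CPM against 47.5 and 40.4 CPM (1.33 ± 0.24, edgeR adjusted p = 0.0067).

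**Figure D5:**
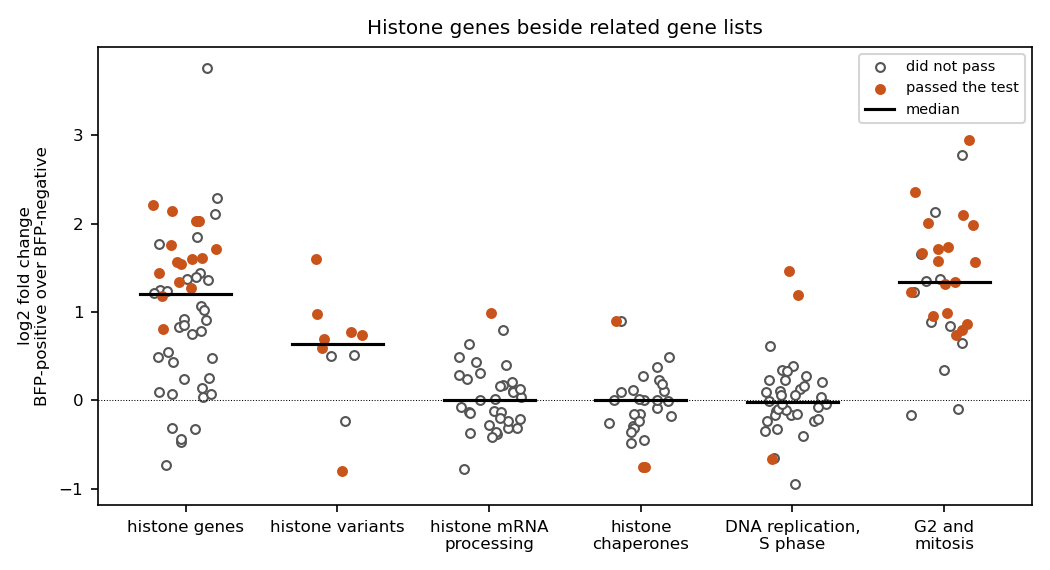
log2 fold change of BFP-positive over BFP-negative cells (y axis) for each tested gene of 6 groups, with filled points for genes that passed the test and a line at the median. The medians of the histone genes (1.20) and of G2 and mitosis (1.34) lie well above 0, those of histone message processing (0.01), chaperones (-0.00) and DNA replication (-0.02) lie at 0, and histone variants (0.64) lie between.

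Markers of other cell types also differed between the groups. The 11 monocyte and macrophage markers summed to 640 and 777 CPM in BFP-negative and 1385 and 1534 CPM in BFP-positive libraries. Of the 9 tested, 6 rose and 2 fell, and C1qa had no count. Cd14 was at 9.80 and 10.3 CPM against 99.3 and 95.8 CPM (3.28 ± 0.20, edgeR adjusted p = 8.98e-06), and Csf1r, the receptor of macrophage colony-stimulating factor, had 3 and 0 counts against 265 and 398. Conventional dendritic cell markers summed to 758 and 753 CPM against 1002 and 1061 CPM, with 5 of 12 higher and 1 lower. Id2 held the largest part of that sum, at 487 and 419 CPM against 508 and 462 CPM with overlap. Without Id2 the others summed to 271 and 335 CPM against 494 and 599 CPM. Naaa was at 94.4 and 104 CPM against 173 and 227 CPM (1.01 ± 0.17, edgeR adjusted p = 0.00363) and Clec4n had 0 and 7 counts against 127 and 199. Xcr1, Clec9a and Batf3 were higher in both BFP-positive libraries without passing (edgeR adjusted p = 0.0695, 0.249 and 0.207). Cadm1 fell, from 27.1 and 30.7 CPM to 14.6 and 13.1 CPM (-1.06 ± 0.26, edgeR adjusted p = 0.0268). The lower call was lost without the second BFP-negative library and without either BFP-positive library. The 14 pDC markers summed to 24954 and 29714 CPM against 21428 and 20544 CPM, with 3 higher and 4 lower, and with 1 higher and 2 lower when the second BFP-positive library was left out. Ly6d held most of that sum, at 17276 and 20930 CPM against 13601 and 12561 CPM, and without it the other markers summed to 7678 and 8784 CPM against 7827 and 7982 CPM, which overlap. Among the lower ones, the chemokine receptor gene Ccr9 was at 915 and 974 CPM against 519 and 500.2 CPM (-0.89 ± 0.11, edgeR adjusted p = 0.000722) and Cox6a2 at 203 and 199 CPM against 121 and 81.2 CPM (-0.99 ± 0.19, edgeR adjusted p = 0.00748). B cell markers summed to 121 and 123 CPM against 94.7 and 99.5 CPM. Cd79a, part of the B cell receptor, was at 15.2 and 13.6 CPM against 2.23 and 1.73 CPM (-2.86 ± 0.43, edgeR adjusted p = 0.0023). The 7 neutrophil markers summed to 12.3 to 27.5 CPM with Elane at 0, and edgeR, DESeq2 and limma-voom called 0 of the 4 tested, with 0 at an unadjusted p under 0.05. Their 2 smallest p-values were those of S100a8 (0.81 ± 0.49) and Ngp (-0.93 ± 0.62). The part of such cells in the histone differences was not tested.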

How the data were processed

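RNA was sequenced from 2 BFP-positive and 2 BFP-negative libraries after SMART-Seq v4 amplification of RNA purified with an RNeasy kit, per the labels' protocols, with no strand and no molecular identifiers. The authors deposited raw counts per gene, made with Subread and featureCounts on GRCm38/mm10 per the submitters' processing notes, and log2 RPKM values, which they had scaled to gene length and library total. Versions, the strand setting and the handling of reads with several matches are not given in the sources used here. The gene length behind each log2 RPKM value was recovered from the counts and came out whole, within 0.1 base, for 99.98% of genes with at least 100 counts.

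The 855 rows without a symbol stayed in library totals and tests. Genes were kept by filterByExpr (minimum count 10, minimum total 15) and fitted in edgeR 4.0.16 (R 4.3.3) with TMM scaling (factors 0.973 to 1.04) and the group as the only term, which leaves 2 residual degrees of freedom. The biological coefficient of variation was 24.7%. P-values are two-sided and adjusted by Benjamini-Hochberg over all 11706 genes tested, at a threshold of 0.05, and the standard error is the log2 fold change over the square root of F. The edgeR fit was tested on simulated data. Libraries of a group differed beyond sampling noise (chi-square over its degrees of freedom 18.9 for BFP-negative and 14.9 for BFP-positive cells), so none was a repeat deposit. Alternatives used DESeq2 1.42.0, limma 3.58.1, other scalings and filters, and each library left out. PCR copies are not independent molecules, so depth gives counting error only. The histone genes and the 11 lists (209 entries, 195 tested) were chosen with earlier results of these data known. The text names every member past the threshold, the 3 members of each class with the highest mean CPM, the untested members with the most counts, the 2 genes with the smallest p of each list, and Cxcl10, Slbp, Npat, H2afz, H3f3b, Pcna and Mki67 in any case. Some of these list genes are not reported here. Other genes named were chosen after their values were seen.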

Additional observations from a re-analysis of the deposited data

How the results depend on the processing

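The number of histone genes that rose was 15 in the reported test and 10 to 16 in edgeR, DESeq2 and limma-voom alternatives, with 22 for limma on the deposited log2 RPKM values; 0 fell in each of the 12 alternatives. The same 8 genes were called in all 12, namely Hist1h1b, Hist1h1e, Hist1h2ab, Hist1h2ae, Hist1h2ag, Hist1h2ao, Hist1h2ap and Hist1h4d. The median log2 fold change of tested members, 1.20 as reported, was 1.13 with library totals, 1.07 with no filter on low counts, 1.09 with the log2 RPKM values and 1.13 to 1.28 with a library left out. The log2 ratio of summed levels was 1.33, with 1.25 to 1.40 under its alternatives. Over all genes, 559 to 921 were higher and 245 to 408 lower with a library left out, and library totals gave 813 higher and 574 lower. The fitted direction of uncalled genes turned for Hist1h3a (0.40 without the first BFP-negative, -0.17 without the second BFP-negative and -0.10 without the second BFP-positive library), Hist1h4c (0.35 without the first BFP-negative, -0.10 without the second BFP-negative and -0.02 without the first BFP-positive library), Npat (0.60 without the first and -0.57 without the second BFP-negative library, and 0.19 without the second BFP-positive library) and H3f3b (0.22 without the first and -0.55 without the second BFP-negative library). The cause was not tested. With library totals 2 cell cycle brakes rose, and with the log2 RPKM values 2 conventional dendritic cell and 1 pDC marker were higher. Both groups share the replicate number along with an unexplained code in the titles. With this number as a block, 16 histone genes rose and Slbp was called (0.41). Over the whole table, 1140 genes were then higher and 760 lower, against 890 and 411 without the block. The deviations of libraries of the same number had a correlation of 0.0594 over all tested genes. That value includes genes at few counts, so it cannot show whether the numbers are pairs. The reported test does not pair them. With 2 libraries per group, changes of genes at a few counts, which most H2b and H3 genes are, cannot be measured closely.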
